A study of Mus musculus with 12 samples.

Results

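The genes described here are 8 transcription factor genes of the primitive streak and of the mesendoderm that leaves it: T, Eomes, Mixl1, Evx1, Cdx2, Mesp1, Gsc and Foxa2. They were chosen by name, through the gene identifiers of the deposited table, and are 8 of the 51467 genes counted there. They serve as a measure of how far epiblast-like cells (EpiLCs) had moved beyond the formative epiblast. Mouse embryonic stem cells (ESCs) were grown in medium with 15% fetal bovine serum, LIF and the 2i inhibitors PD0325901 (against MEK) and CHIR99021 (against GSK3). For EpiLCs, 400000 ESCs were seeded on a 15 cm plate, LIF and 2i were washed out 24 h later, and the cells were harvested about 56 h after that wash. Both cell types received 500 µM 4-thiouridine (4sU) for 30 min, so no group is free of the label. RNA that had taken up 4sU was biotinylated and pulled down (4sU RNA, read here as nascent RNA), and the remaining aliquot was depleted of ribosomal RNA (total RNA). Each cell type and assay had 3 libraries, 12 in all. The labels name no genotype, sex or clone. The study's list of materials gives, for this differentiation, V6.5 ESCs that carry the miR290-mCherry and miR302-GFP reporters, which all groups then share. The study calls the 3 libraries of a group biological replicates. No source used here says whether they came from separate cultures, so every p below measures only the spread between these libraries.

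In the embryo the primitive streak forms at the posterior side of the epiblast, where Nodal, Wnt and BMP signals meet. Cells passing through it switch on T-box and homeobox genes and become mesoderm or definitive endoderm. Formative epiblast comes before that step: it has lost the naive genes and gained Fgf5, Otx2, Pou3f1 and Dnmt3b, and it is competent to answer streak-inducing signals. CHIR99021 itself activates Wnt signalling, and T is a known target of that pathway in ESCs.

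The total RNA libraries held 9300845 to 21975684 gene reads and the 4sU libraries 3097693 to 5385644, so a gene at 1 CPM (reads of the gene relative to all gene reads of its library) had only a few reads in a 4sU library. The labels were borne out by their own markers: 6 naive genes summed to 2347 to 2636 CPM in ESC total RNA and 47.9 to 54.5 CPM in EpiLC total RNA, and 4 formative genes to 130 to 145 CPM and 1243 to 1521 CPM. ESC replicate 3 stood apart in both assays for several of the genes below, as did EpiLC replicate 1 in 4sU RNA, and the calls that these libraries moved most are given with and without them.

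T and Evx1 rose in both total and nascent RNA, and their upstream sequences are shown because of that. These are the 250 bases before the RefSeq transcript start (build GRCm38.p6, sense strand of the gene, 5′ to 3′), at chr17:8434173-8434422 for T and chr6:52313248-52313497 for Evx1, and capitals mark matches to the motifs searched.
T: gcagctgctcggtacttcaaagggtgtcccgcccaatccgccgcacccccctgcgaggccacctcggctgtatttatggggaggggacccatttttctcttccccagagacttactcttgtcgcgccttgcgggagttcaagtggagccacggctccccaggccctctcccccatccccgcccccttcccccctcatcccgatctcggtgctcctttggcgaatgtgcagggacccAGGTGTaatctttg
Evx1: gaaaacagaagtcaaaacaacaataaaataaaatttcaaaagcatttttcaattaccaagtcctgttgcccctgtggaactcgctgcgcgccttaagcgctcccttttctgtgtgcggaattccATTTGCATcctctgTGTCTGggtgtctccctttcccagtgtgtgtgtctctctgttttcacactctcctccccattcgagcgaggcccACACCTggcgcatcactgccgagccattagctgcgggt
The capitals in T are a T-box core site (AGGTGT) that starts 14 bases before the transcript start. In Evx1 they are, from left to right, an octamer (ATGCAAAT on the opposite strand) at 126 bases before the start, a SMAD site (CAGACA, opposite strand) at 112 and a T-box core site (opposite strand) at 38. On either strand, the T-box core site was present in 11.8% of 32851 RefSeq windows of the same length, the SMAD site in 17.1% and the octamer in 1.6%. The longer T-box site AGGTGTGA, which contains the core site, was in 1.12% of windows and in neither sequence, and neither held the TCF/LEF letters CTTTGAT (3.21% of windows) or CTTTGTT (5.03%), the FOXH1 letters AATCCACA or AATACACA (1.61%) or TATAAA (12.4%). Other TCF/LEF strings were not searched. The T sequence holds ttcaaag, which is CTTTGAA on the opposite strand, and the share of windows with that string was not computed. Windows were on hand for 7 of the 8 genes, Mixl1 being the one without. Among the others, the Cdx2 window also held an octamer and a SMAD site, that of Mesp1 a CTTTGAT and a T-box core site, that of Gsc a TATAAA, 1 of the 3 windows of Foxa2 a TATAAA, and that of Eomes no match. A match is a string of letters and says nothing of binding.

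T, also called Brachyury, is the T-box factor that marks the whole streak and is needed for posterior mesoderm. The gene lies on chr17:8434423-8442496 (mm10, plus strand). In total RNA it had 44, 45 and 2 reads in the ESC libraries and 72, 56 and 88 in the EpiLC libraries, or 2.28, 2.05 and 0.181 CPM against 7.74, 5.13 and 8.37 CPM. The groups did not overlap, and ESC replicate 3 was the lowest library by far. How many of all genes have groups that do not overlap was not computed, so such statements here and below are descriptive. In 4sU RNA the ESC libraries had 9, 6 and 0 reads and the EpiLC libraries 103, 49 and 36, with EpiLC replicate 1 the highest at 25.8 CPM against 11.3 and 11.6 CPM in the others. In bulk RNA, a difference in the number of cells that express a gene and a difference in RNA per cell cannot be told apart, here and below. Nascent T rose by 3.86 ± 0.87 on the log2 scale (SE; edgeR quasi-likelihood test on the table of all genes with a read in 3 libraries, adjusted p = 0.00775). The rise in total RNA was 1.93 ± 0.64 (adjusted p = 0.0413), and this call was lost in 8 of the 12 fits that left out a single library (adjusted p up to 0.104) and without both EpiLC replicate 1 libraries (log2 change 1.88, adjusted p = 0.086). The nascent call held in all 12 such fits, with the value moving most upward, to 4.54, without ESC 4sU replicate 1, and most downward, to 3.34 (adjusted p = 0.0227), without EpiLC 4sU replicate 1.

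Evx1, a homeobox gene of the posterior streak, rose from a few reads per library in ESCs. It is on chr6:52313498-52318378 (plus strand). Its reads were 2, 5 and 2 in ESC total RNA against 19, 9 and 12 in EpiLC total RNA, and 2, 1 and 1 against 26, 9 and 8 in 4sU RNA. Every EpiLC library was above every ESC library of the same assay in CPM, and EpiLC replicate 1 was again the highest in both. The log2 change was 2.70 ± 0.55 in total RNA (adjusted p = 7.24e-05) and 3.58 ± 0.65 in nascent RNA (adjusted p = 1.76e-05), and both calls held in all 12 fits that left out a library. The nascent value was 2.87 without EpiLC 4sU replicate 1. Evx1os, an antisense transcript on chr6:52308389-52314832 whose span covers the sequence printed above and the start of Evx1, had 1, 1 and 0 reads in ESC total RNA, 9, 3 and 5 in EpiLC total RNA, 1, 3 and 0 in ESC 4sU RNA and 15, 4 and 4 in EpiLC 4sU RNA. Its highest library was thus the same as for Evx1 in each EpiLC group. Reads were assigned by strand.

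Mixl1, a paired-type homeobox gene that responds to Nodal and marks mesendoderm, is on chr1:180693043-180697034 (minus strand). It had 10, 6 and 6 reads in ESC total RNA and 27, 25 and 28 in EpiLC total RNA, and 9, 12 and 9 against 20, 23 and 11 in 4sU RNA. The groups did not overlap in CPM in either assay, and within EpiLCs the total libraries lay close together, from 2.29 to 2.90 CPM. The rise was 2.43 ± 0.37 on the log2 scale in total RNA (adjusted p = 4.35e-07) and 1.06 ± 0.37 in nascent RNA (adjusted p = 0.0238). The total RNA call held in all 12 fits that left out a library. The nascent call, close to the fold threshold of 1, held in 8 of the 12, with log2 changes of 0.94 to 1.20, and it was lost without EpiLC 4sU replicate 1 (0.99, adjusted p = 0.0753). ESC replicate 3, low for T, was the highest ESC library for Mixl1 in both assays.

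Eomes, a T-box factor of the anterior streak that directs definitive endoderm and cardiac mesoderm and is also a gene of trophoblast stem cells, had the most reads of the 8. It gave no call in total RNA, and its nascent change lay at the threshold, with the call depending on the fit. It is on chr9:118478212-118486132 (plus strand). Its reads were 382, 381 and 97 in ESC total RNA against 168, 125 and 140 in EpiLC total RNA, equal to 19.8, 17.3 and 8.80 CPM against 18.1, 11.4 and 13.3 CPM. The groups overlapped, and ESC replicate 3 was the lowest of the 6 libraries. In 4sU RNA there were 107, 136 and 56 reads in ESCs and 282, 132 and 122 in EpiLCs, which did not overlap in CPM because the lowest EpiLC library (30.4 CPM) was above the highest ESC library (25.3 CPM). The log2 change was -0.29 ± 0.42 in total RNA (adjusted p = 0.64) and 1.10 ± 0.45 in nascent RNA (adjusted p = 0.0952). With limma-voom, the method of the study, the nascent change was 0.97 ± 0.37 (adjusted p = 0.0391), past the p threshold and just short of the fold. On the table fitted with edgeR, nascent Eomes was called higher under 4 of 10 other settings. These were limma-voom (1.02, adjusted p = 0.0383), a 3 CPM filter (1.07, adjusted p = 0.0382), DESeq2 (adjusted p = 0.00411) and a replicate block (1.06, adjusted p = 1.09e-09). That block ties ESC to EpiLC libraries of the same number, which no source pairs, so its p is no separate support. With a single library left out, edgeR called it in 0 of 12 fits (0.66 to 1.35) and limma-voom in 3 of 12 (0.67 to 1.29). The lowest value of both came without EpiLC 4sU replicate 1, which was at 70.6 CPM against 30.4 and 39.4 CPM in the others. Without that library the change was 0.66 in edgeR (adjusted p = 0.301) and 0.67 in limma-voom (adjusted p = 0.158). Gm33460, an antisense transcript that overlaps the end of Eomes, had at most 11 reads in any library.

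Gsc was the one gene of the 8 called lower in total RNA. It encodes Goosecoid, a homeobox repressor of the anterior streak and organizer, and lies on chr12:104471209-104473330 (minus strand). Reads were 49, 53 and 69 in ESC total RNA and 10, 7 and 12 in EpiLC total RNA, or 2.54, 2.41 and 6.26 CPM against 1.08, 0.641 and 1.141 CPM, with no overlap. ESC replicate 3, the lowest library for T and Eomes, was the highest for Gsc. The log2 change was -2.03 ± 0.44 (adjusted p = 0.000518), and the call held in all 12 fits that left out a library, with values of -2.25 to -1.56. In 4sU RNA the reads were 9, 4 and 12 against 3, 0 and 3, and in CPM the groups overlapped. The nascent change of -1.81 ± 0.77 did not pass (adjusted p = 0.074).

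Cdx2, Foxa2 and Mesp1 were close to the limit of these libraries. Cdx2, a caudal homeobox gene of the posterior embryo and of trophoblast (chr5:147300805-147307270, minus strand), had 10, 11 and 2 reads in ESC total RNA and 2, 2 and 1 in EpiLC total RNA. The groups overlapped at ESC replicate 3, which was at 0.181 CPM against 0.215 CPM in EpiLC replicate 1. The log2 change was -1.48 ± 0.74 (adjusted p = 0.109). Without ESC total replicate 3 it was -1.75 and called (adjusted p = 0.0412). The pooled total RNA reads gave an EpiLC to ESC ratio of 0.37, with an exact 95% interval of 0.11 to 0.995 that covers counting error only. In 4sU RNA there were 2, 4 and 0 reads in ESCs and the same numbers in EpiLCs, which gave a ratio of 1.17 between the pooled groups with an exact 95% interval of 0.312 to 4.37.

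Foxa2, a forkhead factor of the anterior streak, node and endoderm (chr2:148042877-148046969, minus strand), had 1, 10 and 1 reads in ESC total RNA, 0, 6 and 4 in EpiLC total RNA, 11, 6 and 2 in ESC 4sU RNA and 10, 7 and 7 in EpiLC 4sU RNA. Most of its few reads were thus in the smaller 4sU libraries, and the groups overlapped in both assays. The log2 change was 0.36 ± 0.77 in total RNA (adjusted p = 0.763) and 0.58 ± 0.61 in nascent RNA (adjusted p = 0.5). The pooled reads gave EpiLC to ESC ratios of 1.42 (0.549 to 3.58) in total RNA and 1.48 (0.775 to 2.85) in 4sU RNA, intervals that include both a fall and a rise. They cover counting error only.

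Mesp1, a bHLH factor of the earliest cardiac and cranial mesoderm (chr7:79792241-79793788, minus strand), had 0, 1 and 1 reads in ESC total RNA, 2, 3 and 0 in EpiLC total RNA and 0 in all 6 4sU libraries. The count of 0 allows up to 0.262 CPM over the EpiLC 4sU libraries and 0.225 CPM over those of ESCs (3 counts over the group). Its 5 reads in EpiLC total RNA against 2 in ESCs gave a ratio of 4.26 with an interval of 0.697 to 44.7, so no difference was detectable at this depth.

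**Figure D1:**
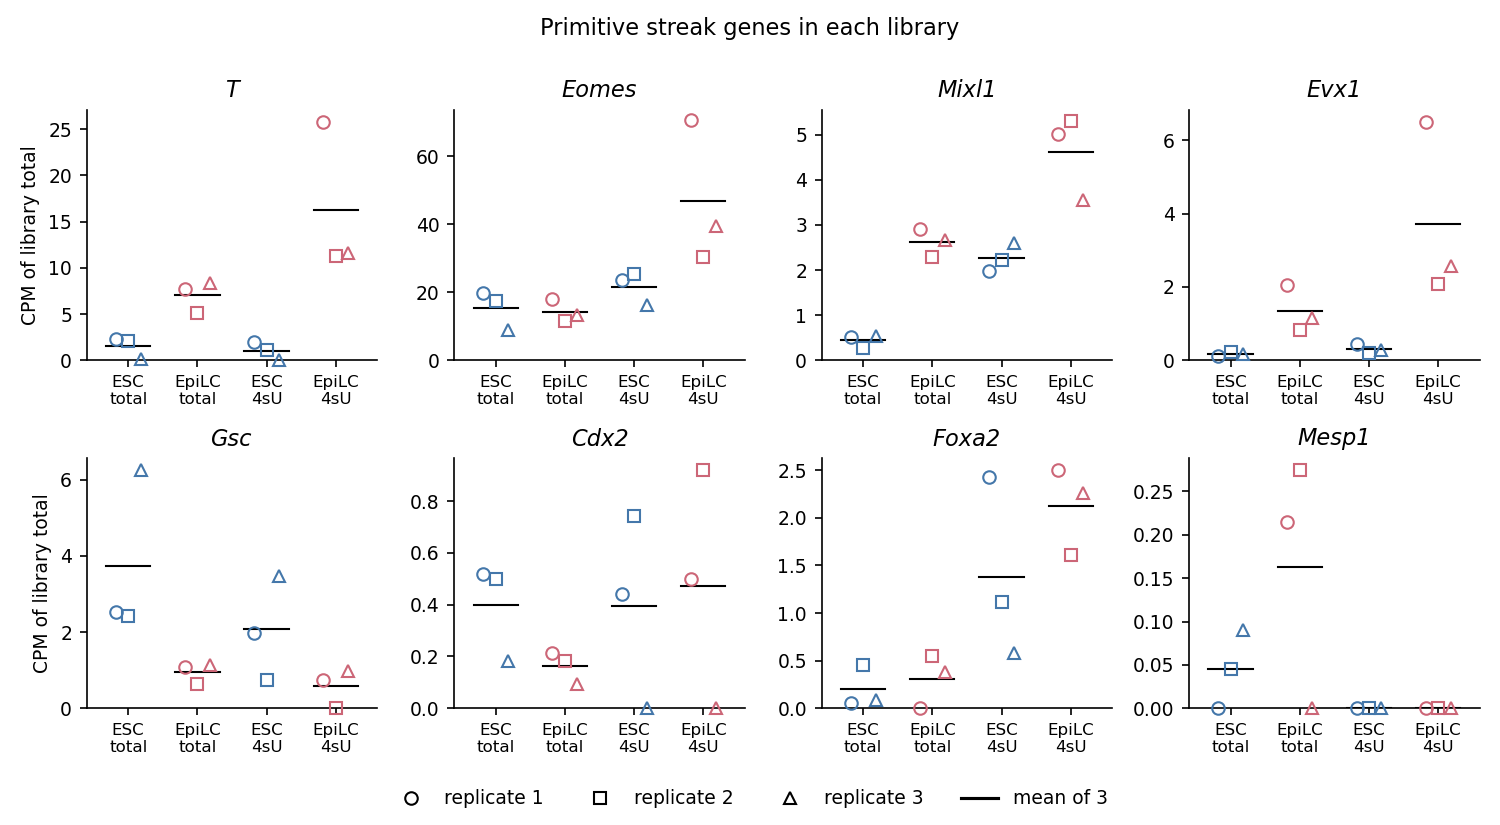
CPM of the library total (y axis, own scale from 0 in each panel) for each of the 8 genes in ESC (blue) and EpiLC (red) libraries of total and 4sU RNA. Symbols are replicates 1 to 3 and bars are the means of 3. T, Evx1 and Mixl1 were higher in every EpiLC library than in any ESC library of the same assay, Gsc was lower in EpiLC total RNA, and Mesp1 had no read in 4sU RNA. The share of all genes that separate in this way was not computed.

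Of the 8 genes, 3 (T, Mixl1 and Evx1) were called higher in EpiLC total RNA and 1 (Gsc) lower, at an adjusted p under 0.05 and an absolute log2 change over 1. Among all 26436 genes of that fit, 13.4% were called higher and 10.3% lower. In nascent RNA the same 3 genes were called higher and 0 lower, beside 9.8% and 10.6% of all genes. At an unadjusted p under 0.05 in edgeR, Gsc was lower in nascent RNA, and limma-voom and DESeq2 called 0 members lower there. The median log2 change of the 8 was 1.00 in total RNA, against 0.00 over all genes tested. With no test of the list as a whole, these shares are descriptive. Under the stricter filter of the study (3 CPM in 3 libraries, limma-voom), 3 of the 8 could be tested, and T and Mixl1 entered only through EpiLC libraries, so their calls there are no separate support. In that fit, T rose by 2.35 ± 0.63 in total RNA (adjusted p = 0.00451) and by 4.24 ± 1.07 in nascent RNA (adjusted p = 0.00416), and Mixl1 rose by 2.51 ± 0.33 in total RNA (adjusted p = 9.77e-06). Nascent Mixl1 was at 1.00 ± 0.32 (adjusted p = 0.018), under the fold threshold before rounding. Of the 14731 genes in that fit, 27.6% were called in total RNA and 25.5% in nascent RNA.

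**Figure D2:**
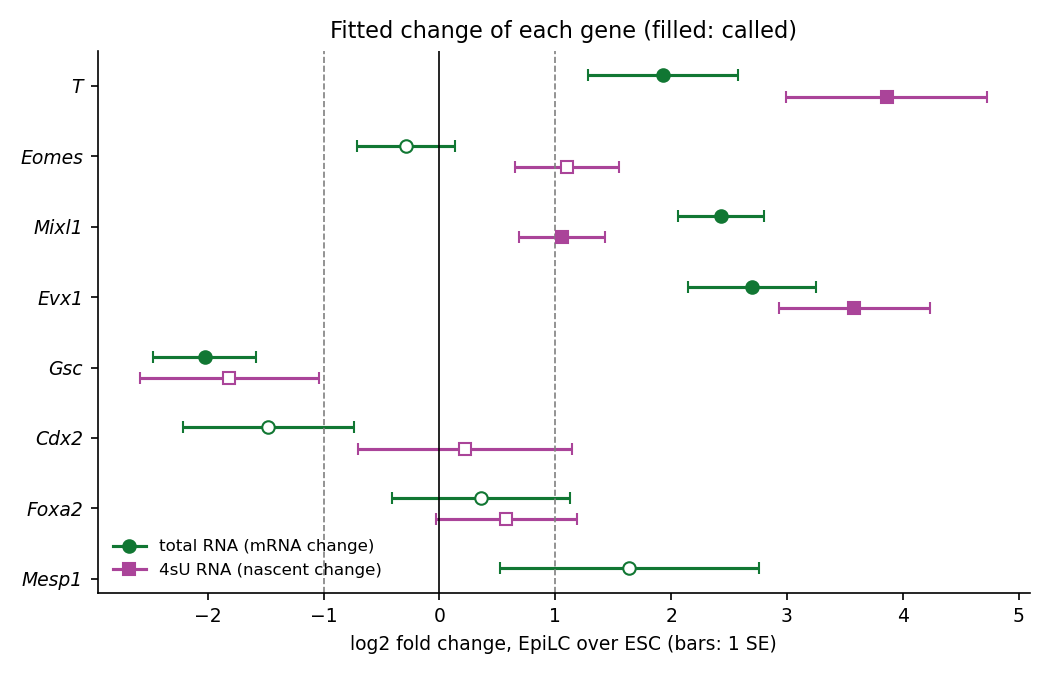
Log2 fold change, EpiLC over ESC, of each gene in total RNA (circles) and 4sU RNA (squares) from the edgeR fit, with bars of 1 SE, dashed lines at the fold threshold of 1 and filled symbols for calls. T and Evx1 lie farthest to the right in nascent RNA (3.86 and 3.58), Gsc lies to the left in both assays, and Mesp1 has no value in 4sU RNA.

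Total and nascent RNA moved by different amounts in several of the genes, and the difference between both changes is the stability change of the study. The ratios that follow set each 4sU library against the total library of the same number, which no label gives as a pair. The 4sU level of T (CPM of library totals) was 0.873 and 0.544 times its total level in ESC replicates 1 and 2. In EpiLC replicates 1, 2 and 3 it was 3.33, 2.20 and 1.39 times. ESC replicate 3 had too few reads for a ratio. Eomes moved the same way, with ratios of 1.20, 1.46 and 1.84 in ESCs and 3.91, 2.65 and 2.96 in EpiLCs. Mixl1 moved the opposite way, from 3.84, 8.16 and 4.79 in ESCs to 1.72, 2.31 and 1.33 in EpiLCs. For all 3 genes the EpiLC ratios lay outside the range of the ESC ratios. The share of all genes for which this holds was not computed, so it is a description only. Without a replicate block, none of the differences passed the interaction test in edgeR, where the stability change was -1.93 ± 1.16 for T (adjusted p = 0.537), -1.39 ± 0.61 for Eomes (adjusted p = 0.358) and 1.37 ± 0.54 for Mixl1 (adjusted p = 0.19). At an unadjusted p under 0.05 in edgeR, Mixl1 passed and the other genes with a value did not. In limma-voom the values were -1.89, -1.20 and 1.51, also without a call (adjusted p = 0.393, 0.162 and 0.0729). Few genes in the whole table gave one: 0.624% were called higher and 0.306% lower in edgeR, and 1.54% in either direction in limma-voom. Each extract was split into a total and a 4sU aliquot, though no label says that libraries of the same number come from the same extract. With the number within each cell type as a replicate block, T and Eomes were called lower in both fits. The values were -1.88 for T (adjusted p = 0.000808) and -1.32 for Eomes (adjusted p = 1.43e-09) in edgeR, and -1.74 (adjusted p = 0.0453) and -1.26 (adjusted p = 0.00358) in limma-voom. Mixl1 was called in neither blocked fit (1.37, adjusted p = 0.092, and 1.45, adjusted p = 0.064). With a single library left out and no block, edgeR called none of the 3 genes in any of the 12 fits. Limma-voom called all 3 without ESC total replicate 3 and none in the other such fits, and T and Mixl1 are in that fit only through EpiLC libraries. Without both ESC replicate 3 libraries, edgeR called T (-1.86, adjusted p = 0.000339) and limma-voom did not (-1.67, adjusted p = 0.0811).

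On a scale per length (RPKM, the CPM divided by the exon length in kb, computed from the counts), these genes stayed low in EpiLCs. In EpiLC total RNA, Eomes was at 3.87 ± 0.92 RPKM (SD, n = 3) and T at 3.46 ± 0.84, and these did not differ beyond their spread. Mixl1 followed at 1.142 ± 0.135, below every library of T and above every library of Gsc, which was at 0.751 ± 0.214. Evx1 at 0.464 ± 0.220 overlapped Gsc, and Foxa2 (0.142), Mesp1 (0.128) and Cdx2 (0.0727) formed a bottom tier whose libraries overlapped. In ESC total RNA the order was Eomes (4.15 ± 1.56) and Gsc (2.95 ± 1.72), which overlapped, then T (0.734 ± 0.562), with the other genes at or below 0.194 RPKM. Evx1 was thus above only Mesp1 in ESCs and above Foxa2, Mesp1 and Cdx2 in EpiLCs. In EpiLC 4sU RNA the order was Eomes (12.7 ± 5.7), T (7.93 ± 4.04), Mixl1 (2.01 ± 0.41), Evx1 (1.29 ± 0.84), Foxa2 (0.975 ± 0.211), Gsc (0.452 ± 0.401), Cdx2 (0.210 ± 0.204) and Mesp1 (0).

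Genes of the formative epiblast gave a scale for these levels. In EpiLC total RNA, Fgf5 was at 16.8 RPKM, Pou3f1 at 20.1, Otx2 at 21.4, Sall2 at 25.5 and Dnmt3b at 287. T stood at 20.6% of the Fgf5 level and 16.2% of Otx2, Eomes at 23.1% and 18.1%, Mixl1 at 6.81% and 5.34%, and Evx1 at 2.77% and 2.17%. The median over the 8 streak genes was 0.608 RPKM, and over the 5 formative genes 21.4 RPKM. Among 21793 protein-coding genes ranked by RPKM in EpiLC total RNA, T was at percentile 58.4, Eomes at 59.8 and Mixl1 at 49.3, while Fgf5 was at 80.6 and Dnmt3b at 99.6. In 4sU RNA, T was at 18.6% of Fgf5 and Eomes at 29.8%. All 5 formative genes were called higher in both assays, with log2 changes of 2.85 (Sall2) to 8.44 (Fgf5) in total RNA. In nascent RNA the change of T (3.86 ± 0.87) was close in size to those of Otx2 (4.02) and Pou3f1 (4.08), from a lower level. Without EpiLC 4sU replicate 1 that change of T was 3.34. In total RNA the change of T (1.93) was below those of all 5 formative genes.

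**Figure D3:**
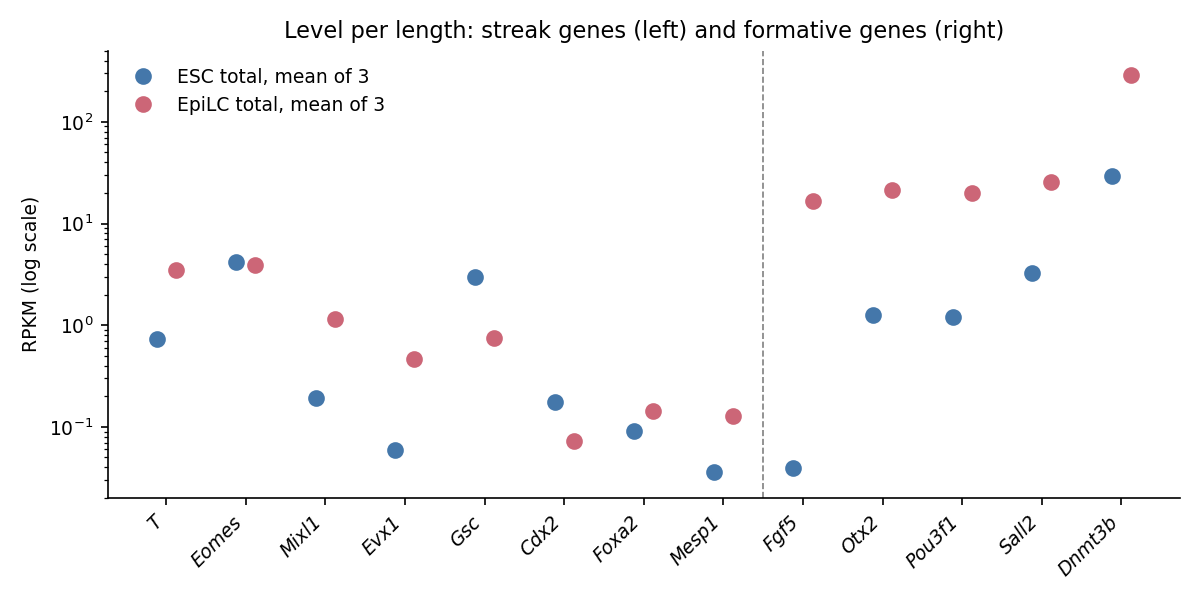
Mean RPKM (log axis) over 3 libraries of ESC total RNA (blue) and EpiLC total RNA (red) for the 8 streak genes (left of the dashed line) and 5 formative genes (right). In EpiLCs no streak gene exceeds 3.87 RPKM and no formative gene is below 16.8 RPKM.

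Among 10 signals and cofactors that induce the streak, 5 were called higher in total RNA and 2 lower (median log2 change 0.87). Over all genes of the edgeR fit, 13.4% were called higher and 10.3% lower in total RNA, and 9.8% and 10.6% in nascent RNA. These shares stand beside each list count here and below. Fgf8, a ligand needed for cells to leave the streak, had 0.292 ± 0.227 CPM in ESCs and 27.6 ± 3.0 CPM in EpiLCs (SD, n = 3), and its log2 change was 6.56. Wnt3, the ligand that starts the streak, went from 0.247 ± 0.185 to 14.1 ± 2.3 CPM (5.51), and Wnt8a, a posterior Wnt ligand, from 0.0628 ± 0.0689 to 7.07 ± 0.65 CPM (6.17). The rise of these 3 ligands was also called in nascent RNA, at 6.88, 4.91 and 4.85. Tdgf1, the Nodal co-receptor, rose from 503 to 1198 CPM, and Foxh1, the DNA-binding partner of SMAD2, from 36.0 to 88.8 CPM. The genes called lower were Fgf4, from 411 to 118 CPM, and Wnt3a, a ligand of the later streak. Wnt3a went from 62, 65 and 29 reads to 1, 0 and 2, an EpiLC to ESC ratio of 0.0327 (exact 95% interval 0.00668 to 0.0975). Bmp4 was not called in total RNA, but limma-voom called it lower without ESC total replicate 3 (-1.15, adjusted p = 0.000173). Nodal itself was at 97.1 CPM in ESCs and 167 CPM in EpiLCs, a log2 change of 0.63 (adjusted p = 6.93e-05) under the fold threshold.

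Of 8 feedback antagonists and targets of these signals, 2 were called higher and 0 lower (median 0.80). Lefty1, a Nodal antagonist, rose from 61.4 ± 48.1 to 469 ± 15 CPM (log2 change 2.73, adjusted p = 0.0456; 2.21, adjusted p = 0.0304, without ESC total replicate 3, where it was very low), and Nkd1, a Wnt antagonist, from 1.88 ± 0.45 to 9.92 ± 0.92 CPM (2.29). Lefty2, its paralog, was at 109 ± 58 CPM in ESCs and 58.6 ± 6.9 CPM in EpiLCs without a call (-1.08, adjusted p = 0.223), and was called lower without ESC total replicate 3 (-1.47, adjusted p = 0.0488). At an unadjusted p under 0.05, none of the 8 was lower in the edgeR fit of all libraries. Without both ESC replicate 3 libraries, 2 were called higher and 2 lower, in edgeR as in limma-voom with the study filter. Those lower in limma-voom were Lefty2 (-1.40, adjusted p = 4.8e-11) and Sp5 (-1.34, adjusted p = 0.0038). Cer1, an antagonist made in the anterior endoderm, had at most 1 read in any library.

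Genes downstream of the streak were called in both directions, as were all genes (13.4% higher and 10.3% lower in total RNA). Of 10 genes of nascent and paraxial mesoderm, 1 was called higher and 2 lower (median -0.04). The gene that rose was Hand1, a bHLH factor of lateral and extraembryonic mesoderm and of trophoblast, from 0, 1 and 2 reads to 7, 4 and 6, a ratio of 9.65 (exact 95% interval 2.79 to 51.4). Of those that fell, Tbx3, a T-box gene that is also a naive pluripotency gene, went from 245 to 3.09 CPM, and Kdr, a VEGF receptor of blood and vessel precursors, from 1.70 to 0.297 CPM. Fgf17 was at 8.71 ± 5.39 CPM in ESCs and 20.0 ± 2.1 CPM in EpiLCs (0.98, adjusted p = 0.167), and was called higher in limma-voom with the study filter (1.19, adjusted p = 0.011), but not without ESC total replicate 3 (0.67). Msgn1, a bHLH factor of presomitic mesoderm, had at most 2 reads in any library, and Tbx6 at most 15. Of 11 genes of anterior streak, node and definitive endoderm, 2 were called higher and 3 lower (median 0.87). Foxa1, a paralog of Foxa2, rose from 3, 0 and 0 reads in ESC total RNA to 20, 23 and 17 in EpiLC total RNA (ratio 34, exact 95% interval 11.1 to 170, edgeR adjusted p = 1.20e-07). Sox17, a factor of definitive and extraembryonic endoderm, fell from 23, 26 and 23 reads to 0, 0 and 2, a ratio of 0.0473 (exact 95% interval 0.00562 to 0.177). Lhx1, a LIM homeobox gene of the anterior streak, was the other gene called higher, with 0 reads in ESC total RNA and 3, 1 and 2 in EpiLC total RNA, at least 3.4-fold higher when ESCs are set at 3 counts over the group. Hhex fell from 5.59 to 2.00 CPM and Chrd, a BMP antagonist of the node, from 4.20 to 1.93 CPM, while Gata4, an endoderm and heart factor, was at 2.62 and 5.28 CPM without a call (0.97, adjusted p = 0.00396). Limma-voom with the study filter called it higher (1.24, adjusted p = 0.00156), as did edgeR without ESC total replicate 3 (1.47, adjusted p = 1.63e-06), where it was at 2.74 times the other ESC libraries. Noto and Shh, genes of the node and notochord, had at most 2 reads in any library.

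The posterior genes were divided. Of 7 listed, 6 were tested, with 2 called higher and 4 lower (median -1.28). Cdx4 rose from 4, 3 and 0 reads in ESC total RNA to 63, 45 and 46 in EpiLC total RNA (log2 change 4.97), and Hoxb1, a Hox gene that responds early to retinoic acid, from 0, 1 and 0 to 7, 6 and 7. Cdx1, the paralog of Cdx4, fell from 598, 555 and 133 reads to 6, 1 and 3 (-6.24, adjusted p = 5.18e-05, and -6.56 without ESC total replicate 3). Of the 3 Cdx genes, Cdx1 had most of its total RNA reads in ESCs, as did Cdx2 with its few, and Cdx4 in EpiLCs. Nkx1-2, a gene of the caudal epiblast, fell from 515, 504 and 63 reads to 8, 11 and 14 (-4.28, and -4.70 without ESC total replicate 3). Fst, which encodes the activin antagonist follistatin, fell from 20.3 to 8.64 CPM. Among 10 close paralogs of the 8 genes, of which Foxa1, Cdx1 and Cdx4 are described above, 8 were tested, with 2 called higher, 1 lower and a median of 0.72. Foxa3 was the most abundant of those not called, at 1.92 CPM in ESCs and 3.42 CPM in EpiLCs, and Evx2 and Tbx19 had at most 1 read in any library. In nascent RNA the 6 lists had 5 higher and 3 lower of 10 signals, 0 and 0 of 8 feedback genes (Lefty1 and Nkd1 higher at an unadjusted p under 0.05), 1 and 2 of 10 mesoderm genes, 2 and 4 of 11 anterior genes, 2 and 2 of 6 posterior genes and 3 and 1 of 8 paralogs. Under the study filter limma-voom called nascent Lefty1 higher (3.13, adjusted p = 0.00775; edgeR 2.66, adjusted p = 0.0633), and it did not call nascent Nkx1-2 (-2.42, adjusted p = 0.0581) or Bmp4 (-1.02, adjusted p = 0.0974), which edgeR called lower. With both ESC replicate 3 libraries left out, edgeR called nascent Lefty1 too (2.14). All these lists were drawn up with earlier results of these data known.

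ESC replicate 3 differed from ESC replicates 1 and 2 in a set of these genes, alike in both assays. T was at 0.0839 times the mean of the other total libraries and had no read in 4sU RNA. Eomes was at 0.474 and 0.664 times. Foxa2 was at 0.358 and 0.327 times, but on very few reads (1, 10 and 1 in ESC total RNA). In total RNA its replicate 3 (0.0907 CPM) was above replicate 1 (0.0518 CPM), and the low ratio came from replicate 2 (0.455 CPM). Gsc was at 2.53 times in total RNA and 2.55 times in 4sU RNA. The companion genes Lefty1 (0.0704 and 0.0914), Lefty2 (0.302 and 0.123), Sp5 (0.125 and 0.260), Dll1 (0.168 and 0.230), Nkx1-2 (0.230 and 0.221), Fgf17 (0.224 and 0.302), Lef1 (0.321 and 0.152) and Cdx1 (0.429 and 0.401) were low there as well. These are 8 of the 36 companion genes with at least 10 reads in both ESC groups (22.2%) that were under 0.5 times in both assays, a limit chosen after the values were seen, and 202 of 16073 genes of the whole table (1.26%) were. Lefty1 and Lefty2 are known as targets of Nodal signalling, and Sp5 and Lef1 as targets of Wnt signalling. What set this pair of libraries apart was not tested. Without both of them, the rise of T in total RNA was still called in edgeR, and 2 members (Gsc and Cdx2) were called lower in place of 1.

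**Figure D4:**
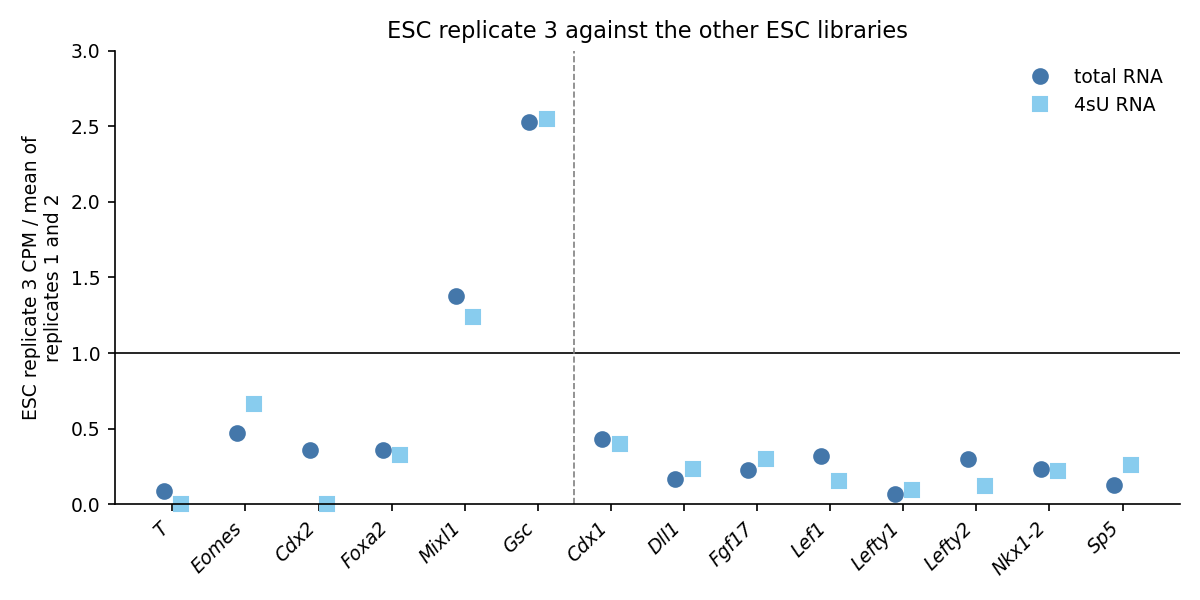
CPM in ESC replicate 3 divided by the mean of ESC replicates 1 and 2 (y axis, line at 1) for 6 streak genes (left of the dashed line) and the 8 companion genes below 0.5 in both assays (right), in total RNA (circles) and 4sU RNA (squares). T lies at 0.0839 and 0, and Gsc at 2.53 and 2.55.

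EpiLC replicate 1 was the other library with a pattern of its own, mostly in 4sU RNA. T was at 2.25 times the mean of the other EpiLC 4sU libraries, Eomes at 2.02 times and Evx1 at 2.80 times, and in total RNA the same ratios were 1.15, 1.46 and 2.08. Mixl1 (1.13) was close to the others. Of the 41 companion genes with at least 10 reads in EpiLC 4sU RNA, 7 (17.1%) were above 1.5 times in this library, beside 5.48% of 16895 genes of the whole table. They were Sp5 (3.17), Cdx4 (2.34), Tbr1 (2.24), Mesp2 (1.95), Wnt3 (1.78), Fgf17 (1.56) and Nkx1-2 (1.54). Wnt8a (1.22), Fgf8 (1.16), Lef1 (1.07) and Dll1 (0.985) were among those that were not. Above 1.5 times in both assays were 2 of 38 companions (Sp5 and Cdx4, 5.26%) and 1 of 5 streak genes (Evx1), beside 0.694% of all genes. The limit of 1.5 was chosen after the values were seen. Summed over the 8 genes, the 3 EpiLC 4sU libraries held 112, 51.6 and 60.4 CPM, the ESC 4sU libraries 23.2 to 32.9 CPM, and total RNA 21.3 to 32.3 CPM in EpiLCs and 16.3 to 25.8 CPM in ESCs. Without Eomes, the most abundant, the other 7 summed to 9.89 to 14.19 CPM in EpiLC total RNA and 5.96 to 7.53 CPM in ESC total RNA. In 4sU RNA these 7 summed to 20.98 to 41.05 CPM in EpiLCs and 6.13 to 9.28 CPM in ESCs.

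Markers of other cell types were counted because Eomes and Cdx2 are also made in trophoblast and Foxa2 in visceral endoderm. The 8 trophoblast markers summed to 51.6 to 59.3 CPM in ESC total RNA and 13.98 to 14.56 CPM in EpiLC total RNA, with 2 called higher (Hand1 and Krt7) and 3 lower (Tfap2a, Ascl2 and Tead4), and 1 gene, Tead4, made most of the ESC sum and of its fall. Tead4 was at 41.1 to 48.7 CPM in ESCs and 3.71 to 5.48 CPM in EpiLCs, while the other 7 markers summed to 8.01 to 10.7 CPM and 8.71 to 10.3 CPM. Krt7 rose, from 0.635 to 1.59 CPM over the ESC libraries to 4.19 to 6.18 CPM over the EpiLC libraries. Elf5 and Plac1 had at most 2 and 3 reads in any library. Gata3, another of these markers, had 16, 7 and 26 reads in ESC total RNA and 19, 10 and 16 in EpiLC total RNA. The 9 markers of primitive and visceral endoderm, some of which are also in the anterior list, summed to 5.80 to 11.97 CPM in ESCs and 21.9 to 23.6 CPM in EpiLCs, with 2 higher (Dab2 and Amn) and 1 lower (Sox17) of 8 tested. Dab2 made 9.80 to 11.8 CPM of the EpiLC sum, and the other 8 went from 5.70 to 10.6 CPM in ESCs to 11.5 to 12.7 CPM. Of these, Afp had 0 reads in every library and Ttr at most 3, while Gata4 was at 2.62 CPM in ESCs and 5.28 CPM in EpiLCs. No rule fixed beforehand which markers to name. The 7 fibroblast markers rose with the cell type, from 3.47 to 4.28 CPM in ESCs to 13.98 to 18.17 CPM in EpiLCs (4 of 5 tested called higher: Col1a1, Col1a2, Col3a1 and Dcn), and Dcn had 0 reads in all 6 ESC libraries and 40, 56 and 47 in EpiLC total RNA. The part of fibroblast or endoderm RNA in the results for the 8 genes was not tested.

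For the 3 genes that passed the filter of the study, the genes with the most similar pattern of log2 CPM over the 12 libraries were listed as a description. For T these were Ube2l3 (Pearson's r = 0.97), Armcx3 (0.97) and Ptprz1 (0.96). For Mixl1 they were Tanc2 (0.98), Dsel (0.97) and Meg3 (0.97), and for Eomes Fbxw7, Kctd21 and Ints6 (0.90 each). The 12 libraries fall into 4 groups, so these values mainly describe group means.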

How the data were processed

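Counts of 12 libraries (ESC and EpiLC, total and 4sU RNA, 3 each) were analysed. The authors deposited raw read counts per gene: reads were trimmed with cutadapt 1.14, aligned to mm10 with STAR 2.5.3a and counted by strand over exons of GENCODE M14 genes with featureCounts 1.5.3. Only uniquely aligned reads were kept, so values of near-identical copies are uncertain. The 92 spike-in entries had 0 reads and gave no absolute scale. Of the gene identifiers, 99.6% had a symbol in GENCODE M21.

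One model with a mean per group was fitted to all genes and libraries with TMM scaling. Genes with a read in at least 3 libraries (26436) were tested with the edgeR 4.0.16 quasi-likelihood test, and the 14731 genes that reached 3 CPM in 3 or more libraries with limma-voom (limma 3.58.1, R 4.3.3), as in the study. A call needed a Benjamini-Hochberg adjusted p under 0.05 over all genes tested and an absolute log2 change over 1. The SE of edgeR values is the log2 change divided by the square root of the quasi-likelihood F statistic. Genes with at most 3 reads in both groups got no fold. Scripts were tested on simulated counts.

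CPM uses library totals, and RPKM the deposited exon length. Intervals are exact (Poisson or Clopper-Pearson, 95%) and cover counting error only, since reads carry no molecular identifiers. Depth was 3097693 to 21975684 reads per library. Beyond the 8 genes, companion genes were named from each list if called in total RNA with at least 1 CPM (at most 6), plus the most abundant one not called; genes chosen after their values were seen are Cer1, Bmp4, Hand1, Lhx1, Hoxb1, Msgn1, Tbx6, Noto, Shh, Evx2, Tbx19 and those named for libraries that stood apart. The values of 1 gene of the posterior list, counted in its totals, are not reported here. The 8 genes, the lists and the tests were chosen with earlier results of these data known. Alternatives covered scaling, filters, DESeq2 1.42.0, quality weights, thresholds, a replicate block and libraries left out. Python 3.11.15, pandas 2.3.3 and scipy 1.17.1 were used.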

Additional observations from a re-analysis of the deposited data

How the results depend on the processing

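Of 666 recomputed log2 changes of the 8 genes, 587 kept their direction and their side of the threshold, 14 lost a call, 49 gained one and 16 changed sign, none of the last from a call. Members called moved as follows. Higher in total RNA: 2 under the study filter became 1 without both EpiLC replicate 1 libraries (an alternative chosen after seeing the data) and 1 to 2 with a library left out. The count of 1 arose where Mixl1 fell below the filter and was not tested, and T stayed called. The highest count under any alternative was 3. Lower in total RNA: 0 became 1 (Gsc, tested then) with a 1 CPM filter or no filter; in edgeR 1 became 0 with a 3 CPM filter, which leaves out Gsc, 2 without both ESC replicate 3 libraries, and 1 to 2 with a library left out. Higher in nascent RNA, study filter: 1 became 2 with library totals, a 1 CPM filter, quality weights or both ESC replicate 3 libraries out, 3 with median-of-ratios scaling, edgeR, DESeq2 or adjusted p alone, 4 with no filter, and 1 to 3 with a library left out. Higher in nascent RNA, edgeR: 3 became 4 (Eomes added) with limma-voom, DESeq2 or a replicate block, and 2 to 3 with a library left out. Lower in nascent RNA, edgeR: 0 became 1 with genes of 1 read in any library and 0 to 1 with a library left out. Stability, study filter: higher 0 became 1 (Mixl1) with quality weights or both ESC replicate 3 libraries out and 0 to 1 with a library left out, and lower 0 became 1 with quality weights, DESeq2 or both ESC replicate 3 libraries out and 0 to 2 with a library left out. Stability lower in edgeR: 0 became 1 with DESeq2 or both ESC replicate 3 libraries out. Sign changes with a library left out were in Foxa2 total RNA (-0.29 to 1.93), Cdx2 nascent (-0.62 to 1.05), Gsc stability (-0.89 to 0.32) and Foxa2 stability (-0.87 to 1.36); others were Cdx2 nascent -0.24 without both ESC replicate 3 libraries, Gsc stability 0.02 in limma-voom, and 0.07 (Gsc) and 0.46 (Foxa2) stability without both EpiLC replicate 1 libraries. The causes were not tested. Over all genes, calls ranged from 2049 to 4624 higher and 1479 to 4729 lower in total RNA, 1559 to 3485 and 1604 to 4246 in nascent RNA and 15 to 738 and 20 to 277 in stability (study filter), and from 2337 to 5184, 1679 to 5623, 1749 to 4267, 2069 to 4876, 31 to 719 and 37 to 367 in edgeR.

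Same-numbered libraries deviated together between ESC total and 4sU RNA (r = 0.174, 0.300 and 0.409 over genes) and hardly in EpiLCs (0.071, 0.030 and 0.019), and not every library correlated best with its own number, so the numbers were not taken as a pairing in the main fits. The ratios of 4sU to total level given for T, Eomes and Mixl1 did match libraries by number. Each extract was split between the assays, but no label ties the numbers to extracts. For the total and nascent changes the replicate block was the number over all groups. It thus also tied ESC to EpiLC libraries, which no source pairs (r = -0.040, -0.023 and -0.030 between same-numbered 4sU libraries). With it, 2 members were called higher in nascent RNA under the study filter (T and Eomes) and 4 in edgeR, and 1 lower in edgeR (Gsc -1.79). For stability the block was the number within each cell type, and 2 members were called lower in both fits. The values were -1.74 for T and -1.26 for Eomes under the study filter, and -1.88 and -1.32 in edgeR. The 4sU depth limits Cdx2, Foxa2 and Mesp1 most.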
